A study of Rattus norvegicus with 125 samples.

Results

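The genes described here are 44 cell cycle and DNA replication genes that rise in dividing cells, taken as a list of gene names with earlier results of these data known. Their probe sets were taken from an Affymetrix rat expression array, with 1 probe set per gene and tissue, the one of highest mean signal among those annotated to that symbol alone. A probe set was found for 43 of the 44, the spindle assembly factor Tpx2 having none, out of 13439 genes measured in the same way. A single probe set existed for 31 of the 43, and 12 had several, up to 5.

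Adult male Sprague-Dawley rats breathed phosphine (PH3, a fumigant gas that interferes with mitochondrial respiration) with the whole body, at 387 ppm for 40 min, a concentration and time product of 15480 ppm × min that the submitters call low. Control rats are labelled Air. Total RNA came from cryopulverized whole pieces of organ, so fewer cells of a type and less RNA per cell cannot be told apart. Brain and kidney had 4 PH3 and 4 Air arrays at each of 1, 3, 6 and 24 h after the exposure. Heart had the same numbers at 1, 3 and 6 h, but 3 PH3 and 2 Air arrays at 24 h. Liver had 4 and 4 arrays at 6 h, and 3 PH3 arrays with no Air arrays at 3 h. Lung had 4 PH3 and 2 Air arrays at 3 h, 4 and 4 at 24 h, and 3 PH3 and 4 Air arrays at 1 week. The 125 arrays came from 48 rats by the rat numbers in the labels, most of which gave several organs, so the organs are not independent sets of animals. All values are log2 signals, 1 unit being a doubling. In each organ the defining markers of that organ (neurons, cardiomyocytes, kidney tubule, hepatocytes and lung epithelium) had their lowest array above the highest array of any other organ.

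A cell that divides first copies its DNA and then separates the copies. In late G1 the E2F factors switch on the genes of DNA synthesis, among them the MCM helicase subunits, the GINS complex, the sliding clamp Pcna and the enzymes that supply nucleotides. In G2 and mitosis a complex of MuvB proteins with B-MYB and FOXM1 switches on cyclin B, Cdk1, the Aurora and Polo kinases, the spindle checkpoint and the kinesins of the spindle. Most cells of adult brain and heart muscle are out of the cycle, while the vessels, connective tissue, immune cells and epithelia of adult organs keep some turnover.

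The promoters of the members are shown because the 2 waves are read from different letters near the start site. RefSeq windows of 300 bases (build GRCr8, 250 before and 50 after the start) were matched by symbol for 36 of the measured members, which gave 37 windows since Cdkn3 has 2. Mcm4, Rrm2, Ccna2, Aurkb, Foxm1, Ube2c and Racgap1 were not matched. The letters searched on both strands were TTTGAA (the cell cycle genes homology region, CHR), CCAAT, and 4 spellings of an E2F site, TTTGGCGC, TTTCGCGC, TTTCCCGC and TTTGCCGC, which overlap one another where the site is a palindrome. Capitals mark these letters on either strand, 5′ to 3′ on the strand of the gene. The 4 windows belong to the members with the clearest difference between organs (Mcm5 and Gins1) and to the mitotic kinase Cdk1 and its cyclin Ccnb2, which followed the other members most closely in heart. They lie at chr19:13488563-13488862 (Mcm5, plus strand), chr3:160184670-160184969 (Gins1, plus strand), chr20:19265043-19265342 (Cdk1, plus strand) and chr8:79981609-79981908 (Ccnb2, minus strand).
Mcm5: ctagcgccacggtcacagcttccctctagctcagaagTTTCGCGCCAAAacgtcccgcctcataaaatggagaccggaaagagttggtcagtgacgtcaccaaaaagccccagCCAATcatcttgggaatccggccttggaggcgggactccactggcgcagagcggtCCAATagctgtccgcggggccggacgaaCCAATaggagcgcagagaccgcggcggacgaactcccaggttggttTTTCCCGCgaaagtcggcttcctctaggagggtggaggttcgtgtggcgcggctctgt
Gins1: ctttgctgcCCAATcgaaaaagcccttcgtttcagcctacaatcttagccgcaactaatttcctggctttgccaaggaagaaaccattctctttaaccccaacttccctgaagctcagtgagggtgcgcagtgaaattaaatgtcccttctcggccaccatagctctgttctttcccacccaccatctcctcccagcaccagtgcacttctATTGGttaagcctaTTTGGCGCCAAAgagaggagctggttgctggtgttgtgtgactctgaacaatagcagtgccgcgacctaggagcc
Cdk1: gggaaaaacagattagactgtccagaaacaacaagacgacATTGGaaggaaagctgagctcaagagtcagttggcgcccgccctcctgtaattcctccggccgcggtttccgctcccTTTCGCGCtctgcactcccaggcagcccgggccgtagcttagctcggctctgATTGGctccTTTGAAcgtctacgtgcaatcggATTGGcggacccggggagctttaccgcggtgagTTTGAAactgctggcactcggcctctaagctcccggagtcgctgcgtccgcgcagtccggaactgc
Ccnb2: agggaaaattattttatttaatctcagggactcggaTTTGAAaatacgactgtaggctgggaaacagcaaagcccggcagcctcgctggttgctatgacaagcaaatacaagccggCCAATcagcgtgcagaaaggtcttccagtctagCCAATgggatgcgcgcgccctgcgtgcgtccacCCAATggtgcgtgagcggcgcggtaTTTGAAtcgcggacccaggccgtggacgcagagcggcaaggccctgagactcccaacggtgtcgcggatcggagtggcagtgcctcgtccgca

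An E2F spelling was found in 7 of the 10 windows of the replication genes (Mcm2, Mcm3, Mcm5, Mcm6, Mcm7, Gins1 and Tyms) and in that of Cdk1 but in no other member window, against 2.14% of all 33465 windows searched. TTTGAA stood in 21 of 37 member windows (56.8%) against 18.3% of all windows, but in 1 of 10 replication windows, that of Mcm2. CCAAT stood in 29 of 37 (78.4%) against 37.5%, including all 10 windows of the spindle, kinetochore and cytokinesis genes. TTTGAA and CCAAT together stood in 18 of 37 windows (48.6%) against 7.41% of all, and in 0 of 10 replication windows. The Mcm5 window held 3 E2F spellings and no TTTGAA, that of Ccnb2 held 2 TTTGAA and no E2F spelling, and that of Cdk1 held both kinds.

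In Air rats the brain stood lowest. Mki67, the proliferation antigen, had a mean of 3.61 ± 0.17 (SD, n = 16) in brain, 5.19 ± 0.84 (SD, n = 10) in lung, 5.26 ± 0.60 (SD, n = 16) in kidney, 5.296 ± 0.34 (SD, n = 4) in liver and 5.87 ± 0.59 (SD, n = 14) in heart. The 16 Air brain arrays lay between 3.25 and 3.94 and every Air heart array at or above 4.82, whereas the means of lung, kidney, liver and heart were closer to one another than the SD of lung. Top2a, the topoisomerase that untangles sister chromatids, had the same lowest organ, at 4.35 ± 0.21 (SD, n = 16) in brain against 5.70 ± 0.42 (SD, n = 4) in liver and 6.19 ± 0.58 (SD, n = 16), 6.20 ± 0.74 (SD, n = 10) and 6.28 ± 0.50 (SD, n = 14) in kidney, lung and heart. Pcna, which also serves DNA repair, was high everywhere, from 9.77 ± 0.04 (SD, n = 4) in liver and 9.96 ± 0.10 (SD, n = 16) in brain to 10.92 ± 0.12 (SD, n = 10) in lung. Of the 43 members, 38 had their lowest Air mean in brain, and all Air brain arrays were below all Air kidney arrays for 32 members, below lung for 30 and below heart for 28. In brain 23 members lay below the 25th percentile of all genes, against 2 in heart, 3 in kidney, 5 in liver and 3 in lung, so many members in brain were measured near the bottom of the array's range.

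The organ of highest level differed between members. It was lung for 22, liver for 8, heart for 7 and kidney for 6. A few members stood far apart in 1 organ. Melk, a mitotic kinase, had a mean of 7.68 ± 0.64 (SD, n = 16) in Air kidney and at most 4.98 in the other organs. Kif11, the motor that pushes spindle poles apart, had 8.09 ± 0.54 (SD, n = 16) in Air kidney and 5.10 ± 0.47 (SD, n = 14) in heart, the next organ. Aurkb, the kinase of the chromosomal passenger complex, had 7.38 ± 0.87 (SD, n = 10) in lung and 4.82 ± 0.39 (SD, n = 14) in heart. For Melk, Kif11 and Aurkb the lowest array of the high organ exceeded the highest Air array of every other organ. Ttk, a checkpoint kinase, had a mean between 3.49 and 3.86 in all 5 organs.

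**Figure D1:**
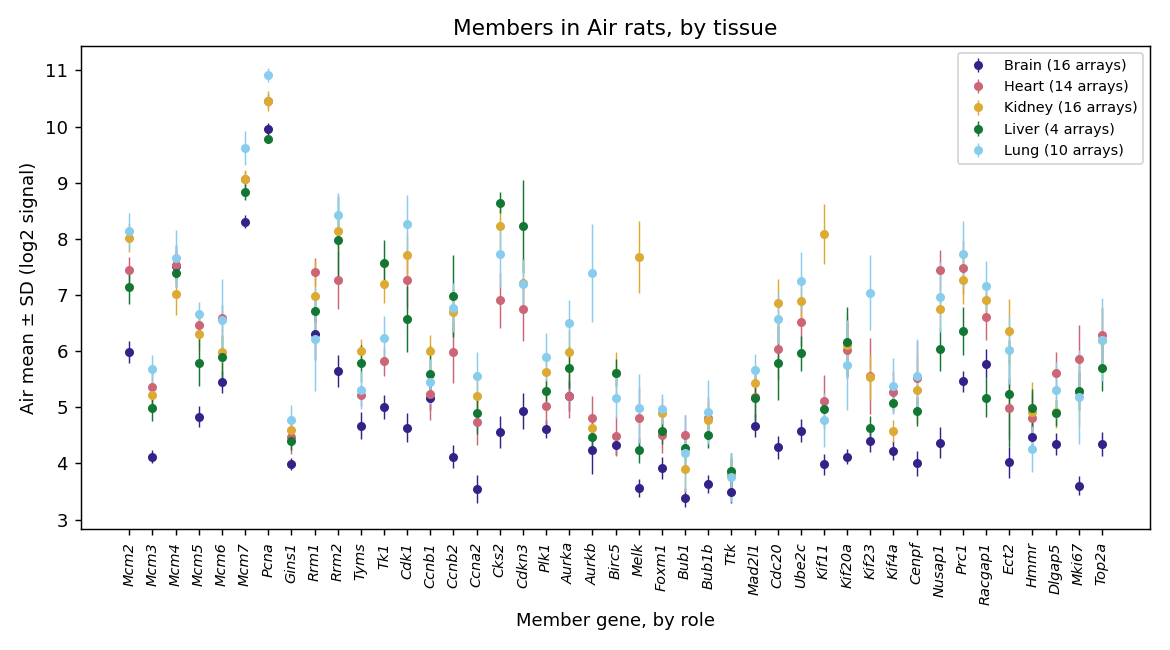
Mean log2 signal of each of 43 members in Air rats by organ; points are means, bars 1 SD over arrays, members ordered by role. Brain is lowest for 38 of 43 members, and Melk and Kif11 stand apart in kidney and Aurkb in lung.

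PH3 and Air were compared in 16 organ and time groups with limma, with p-values adjusted by Benjamini-Hochberg over all 13439 genes. None of the 43 members passed an adjusted p of 0.05 in any of the 16 comparisons. The share of all genes that passed was 0.00744% in brain at 1 h, 0.00744% at 3 h, 0.00744% at 6 h and 0.0298% at 24 h. In heart it was 0.0521% at 1 h, 0.238% at 3 h, 2.7% at 6 h and 0% at 24 h, and in kidney 0.223%, 0.104%, 0.126% and 0.0149% at the same times. Liver at 6 h had 0.238%, and lung 0.298% at 3 h, 0% at 24 h and 0% at 1 week. Shares this low mean that few genes of any kind passed outside heart at 6 h. The 95% interval of a typical member's change, not adjusted over genes, reached to either side by 0.30 in brain and 0.44 in kidney. It reached 0.53 in heart before 24 h, 0.69 there at 24 h, 0.51 in liver and 0.58 to 0.72 in lung. Changes smaller than these were not detectable here for a typical member, and passing after adjustment took larger ones. In heart at 24 h Cdk1, at -1.33, did not pass.

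**Figure D2:**
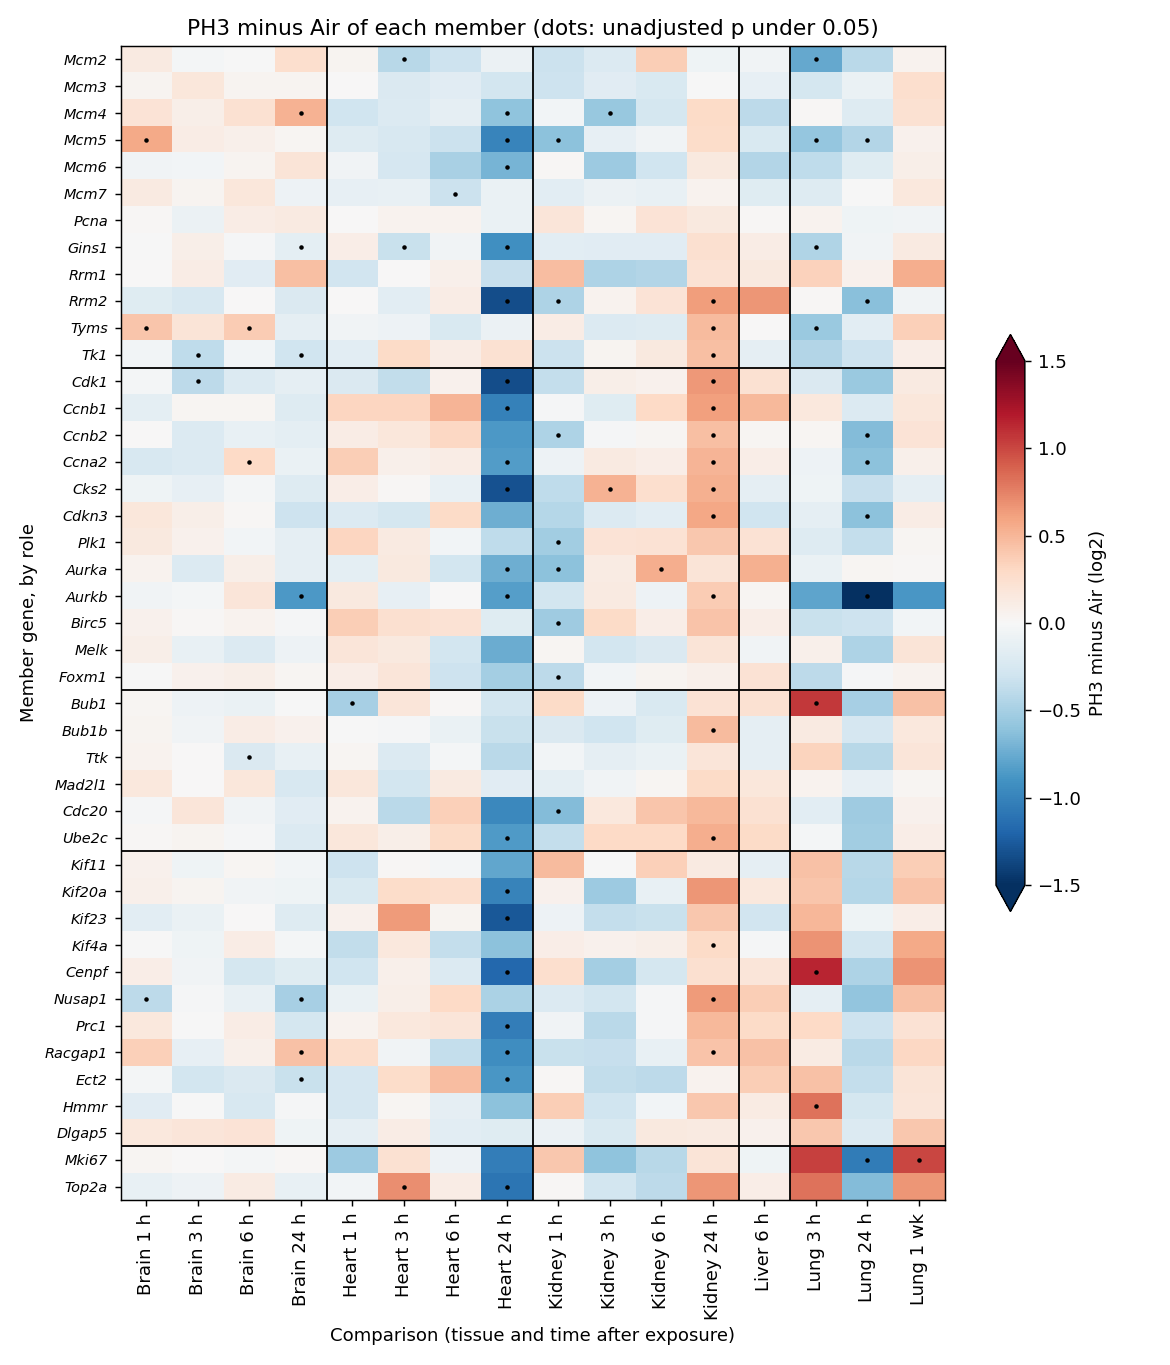
PH3 minus Air (log2) of 43 members in rows, by role, in 16 comparisons in columns; red is higher in PH3, blue lower, and dots mark an unadjusted p under 0.05, which 19 members reached in heart at 24 h and 15 in kidney at 24 h. No member passed after adjustment over all genes; the heart 24 h and lung 24 h columns are mostly blue and the kidney 24 h column mostly red.

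In the first 6 h the members stood on both sides of 0 in every organ. Their median change in brain was 0.02 at 1 h, -0.02 at 3 h and 0.01 at 6 h, against 0.01, -0.03 and 0.01 for all genes. In heart it was -0.01, 0.05 and -0.03 at 1, 3 and 6 h, and in kidney -0.14, -0.16 and -0.05, against -0.06, 0.01 and 0.02 for all genes in kidney. Unadjusted p under 0.05 was reached in brain by 3, 2 and 3 members at 1, 3 and 6 h, with 5.19%, 4.03% and 3.21% of all genes. It was reached in heart by 1, 3 and 1 members (8.07%, 12.8% and 15.1% of all genes) and in kidney by 8, 2 and 1 (9.97%, 7.28% and 7.78%). Liver at 6 h had 0 such members, with 14.1% of all genes, and a member median of 0.09. As shares of the 43 members these are 6.98%, 4.65% and 6.98% in brain, 2.33%, 6.98% and 2.33% in heart and 18.6%, 4.65% and 2.33% in kidney, so brain at the 3 times and kidney at 1 h were above the share of all genes and the others below it. The 8 members of kidney at 1 h, all lower in PH3, numbered 2 without Air rat 107 or PH3 rat 116, 4 without PH3 rat 109 and 14 without PH3 rat 115. The other counts rested on 3 members or fewer.

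Mcm5, a subunit of the MCM helicase that opens DNA at origins, had the smallest p of all members both in brain and in kidney at 1 h, with opposite signs. In brain the Air arrays read 4.42, 4.53, 4.91 and 4.96 and the PH3 arrays 5.15, 5.15, 5.16 and 5.63. All 4 PH3 brain arrays were above all 4 Air arrays. In kidney the Air arrays read 6.37, 6.61, 6.61 and 6.67 and the PH3 arrays 5.71, 5.77, 6.15 and 6.19. Here all 4 PH3 arrays were below all 4 Air arrays. The change was 0.57 ± 0.15 (SE) in brain (limma adjusted p = 0.82), -0.19 ± 0.20 (SE) in heart (adjusted p = 0.843) and -0.61 ± 0.18 (SE) in kidney (adjusted p = 0.251). The difference of these 3 effects had its own test, a limma F test over brain, heart and kidney, and Mcm5 was the 1 member that passed it at 1 h (adjusted p = 0.0248), with 0.238% of all genes passing. With the rat as a block, since the organs share rats, the adjusted p was 0.026. The call rested on single arrays: it was lost when any 1 of 8 of the 24 arrays was left out, with an adjusted p up to 0.12 (without the kidney array of PH3 rat 109). The same test passed 0 members at 3 h (0.275% of all genes; 2 members at an unadjusted p under 0.05) and 0 at 6 h (0.833%; 5 members). Tested between times within an organ, 0 members passed in brain (0% of all genes), heart (0.268%), kidney (0%) or lung (0%). The members at an unadjusted p under 0.05 in those limma F tests numbered 3, 5, 14 and 5, against 4.25%, 9.99%, 4.96% and 3.22% of all genes. The share of the 43 members was above that of all genes in each of the 4 organs, least so in heart.

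The other early members of smallest p were as follows. In brain at 1 h Tyms, which makes thymidylate, gave 0.42 ± 0.13 (SE), with all PH3 arrays above all Air arrays, and Nusap1, a spindle microtubule binder, -0.39 ± 0.19 (SE). At 3 h in brain the salvage kinase Tk1 gave -0.38 ± 0.13 (SE), Cdk1 -0.39 ± 0.17 (SE) and the cytokinesis exchange factor Ect2 -0.28 ± 0.16 (SE). At 6 h Tyms again gave 0.38 ± 0.13 (SE), the S phase cyclin Ccna2 0.30 ± 0.13 (SE) and Ttk -0.21 ± 0.10 (SE). Of these, Ect2 gave -0.17 without Air rat 108. The smallest adjusted p among members was 0.82 at 1 h and at or above 0.999 at 3 and 6 h in brain. Besides Mcm5, kidney at 1 h had Aurka, the centrosomal kinase, at -0.62 ± 0.23 (SE) and Cdc20, the activator of the anaphase-promoting complex, at -0.65 ± 0.25 (SE). In kidney at 3 h Cks2, a Cdk1 subunit, gave 0.53 ± 0.24 (SE), Mcm4 -0.56 ± 0.27 (SE) and Mcm6 -0.55 ± 0.29 (SE). Without PH3 rat 122 Mcm4 gave -0.37 and Mcm6 -0.19. In kidney at 6 h Aurka and Cdc20 were on the other side of 0, at 0.54 ± 0.23 (SE) and 0.42 ± 0.25 (SE), with Mcm2 at 0.36 ± 0.19 (SE). Mcm2 gave 0.22 without PH3 rat 134, and Cdc20 0.26 without Air rat 132. The smallest adjusted p among members in kidney was 0.251, 0.658 and 0.533 at the 3 times. In liver at 6 h Mcm4 gave -0.39 ± 0.20 (SE), Rrm2, the regulated subunit of ribonucleotide reductase, 0.67 ± 0.39 (SE) and Aurka 0.53 ± 0.31 (SE), the smallest adjusted p being 0.406. Single livers carried much of each value: Mcm4 gave -0.16 without PH3 rat 128, Rrm2 0.31 without Air rat 132 and Aurka 0.32 without PH3 rat 141.

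Heart at 6 h was the comparison with most passing genes in the series, 190 higher and 173 lower, and it held no passing member. The helicase subunit Mcm7 came nearest. Its Air arrays read 8.93, 8.96, 9.06 and 9.19 and its PH3 arrays 8.56, 8.75, 8.75 and 8.82, without overlap. The change was -0.32 ± 0.11 (SE), limma adjusted p = 0.116. Among replication genes the lowest was Mcm6 (-0.49 ± 0.24, SE), followed in p by Mcm5 (-0.32 ± 0.20, SE), and the highest Tk1 (0.11 ± 0.28, SE). Among cyclins and kinases the range ran from Foxm1 (-0.31 ± 0.22, SE) to Ccnb1 (0.51 ± 0.38, SE). Among checkpoint genes it ran from Bub1b (-0.10 ± 0.27, SE) to Cdc20 (0.35 ± 0.37, SE), and among spindle and cytokinesis genes from Kif4a (-0.36 ± 0.25, SE) to Ect2 (0.47 ± 0.30, SE). Mki67 stood at -0.07 ± 0.41 (SE) and Top2a at 0.12 ± 0.29 (SE). Of these named members of heart at 6 h, Mcm7 and Ect2 alone kept their value within 1.5 times when any 1 array was left out, and Tk1, Top2a, Bub1b and Mki67 changed sign. At 3 h in heart the members of smallest p were Gins1, a subunit of the GINS part of the replicative helicase, at -0.34 ± 0.13 (SE), Top2a at 0.70 ± 0.29 (SE) and Mcm2 at -0.41 ± 0.19 (SE), and at 1 h the checkpoint kinase Bub1 at -0.50 ± 0.21 (SE), Rrm1 at -0.29 ± 0.17 (SE) and the survivin gene Birc5 at 0.36 ± 0.22 (SE). Mcm2 gave -0.24 at 3 h without Air rat 108, and at 1 h Rrm1 gave -0.17 without PH3 rat 116 and Birc5 0.16 without Air rat 168. The smallest adjusted p among members was 0.283 at 3 h and 0.564 at 1 h.

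Members varied together between arrays within groups in every organ but brain. Over the residuals of arrays from their group means, the median correlation of 2 members was 0.48 in heart, 0.41 in liver, 0.32 in lung and 0.23 in kidney, against 0.03, 0.00, 0.07 and 0.05 for pairs of genes at large. In brain it was 0.05, as for all genes (0.05). These correlations are across arrays that share a group mean, with 8 to 24 residual degrees of freedom, and are given as a description. In heart Ccnb2 (0.95), Cdk1 (0.94), Racgap1 (0.92, a cytokinesis regulator) and Prc1 (0.90, a midzone bundler) followed the mean of the other members most closely, and Mad2l1 (-0.09) least. In kidney 12 of 43 members ran below 0, Foxm1 lowest (-0.45), with the replication genes Mcm2, Mcm5, Mcm7, Gins1 and Tk1 among the 12, and Prc1 highest (0.91). A per-array score was the mean over the 43 members of each one's distance from its own mean in the organ. Its SD within groups was 0.06 in brain, 0.29 in heart, 0.18 in kidney, 0.28 in liver and 0.23 in lung. The PH3 kidneys at 24 h scored 0.375, 0.259, 0.058 and 0.058 where actin 3′ minus 5′, a sign of RNA quality, was 2.791, 3.266, 3.463 and 3.615. In the Air kidneys at 6 h the highest and lowest scores, 0.299 and -0.154, stood at 3.76 and 2.577. The part of RNA quality was not tested.

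**Figure D3:**
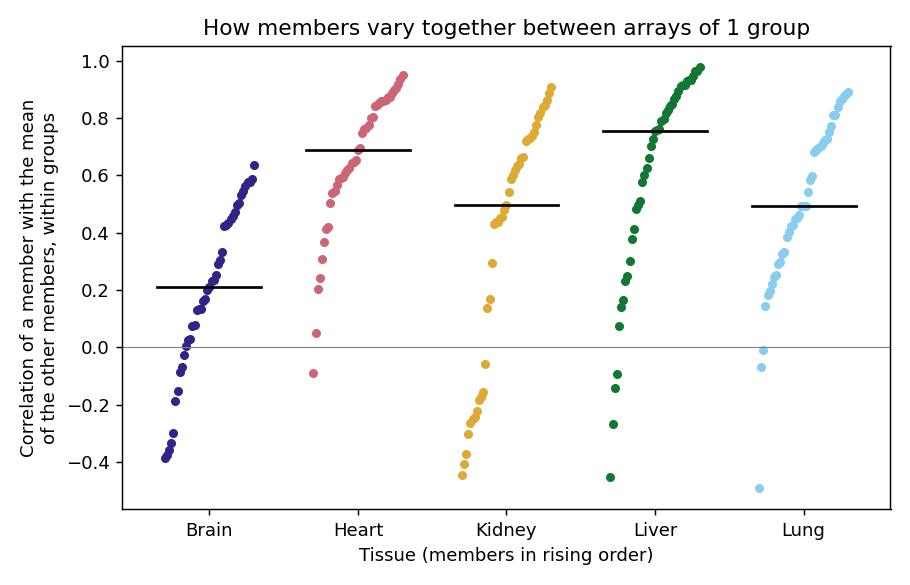
Correlation of each of 43 members with the mean of the other 42 over arrays, after the group means were taken out, by organ; black lines are medians over members. The median was 0.21 in brain, 0.69 in heart, 0.50 in kidney, 0.76 in liver and 0.49 in lung.

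At 24 h the members stood mostly on 1 side in heart, kidney and lung, and the side differed. One control rat, Air rat 145, bears on all of these: its score was the highest of all 29 heart arrays (0.68, the next 0.53) and of all 21 lung arrays (0.47, the next 0.35), and the highest of the 4 Air kidneys at 24 h (0.21, the others -0.35 to -0.21). Its brain score was 0.04. The medians of all members at 24 h in heart, kidney and lung are therefore given with and without Air rat 145. So are the counts of members by direction and by unadjusted p. Counts and medians by role, and counts of members without overlap, include it.

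**Figure D4:**
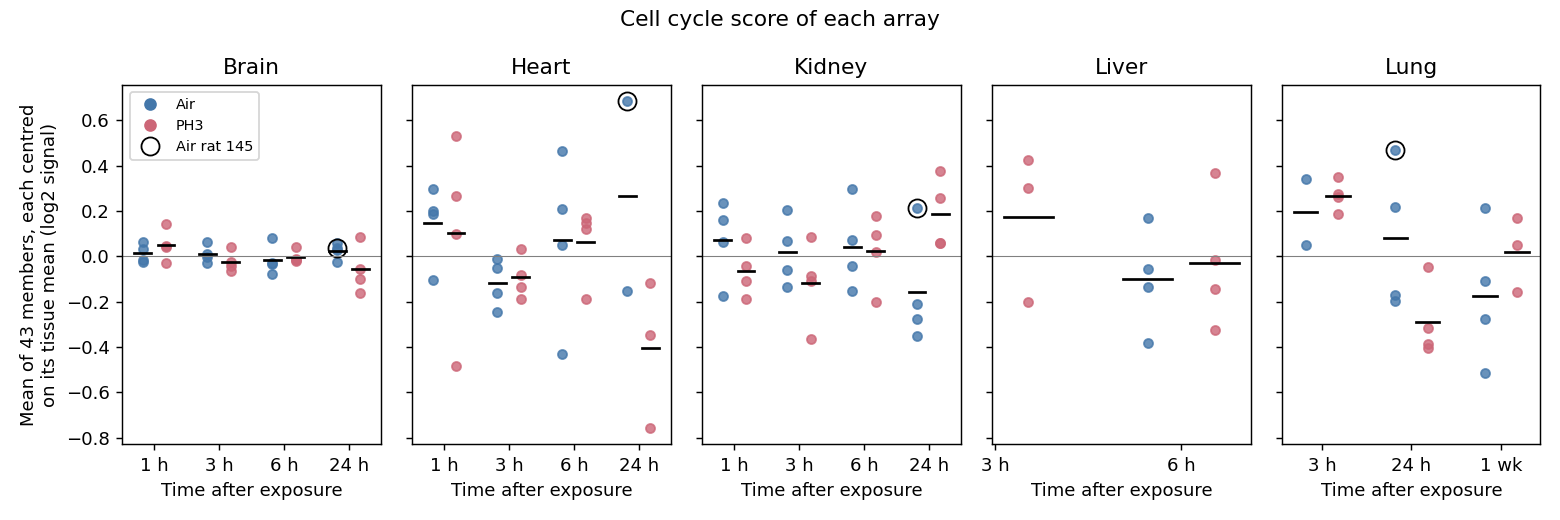
Cell cycle score of each array (mean over 43 members of log2 signal minus the member's mean in the organ) by organ, time and exposure; points are arrays, bars group means, the ring marks Air rat 145. At 24 h the PH3 hearts lie at or below -0.12 and the PH3 kidneys at or above 0.06, and in heart and lung Air rat 145 is the highest array of the organ.

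In heart at 24 h 42 of 43 members were lower in PH3 (55.3% of all genes were), with a median of -0.73 against -0.02 for all genes. The unadjusted p was under 0.05 for 19 members, all lower, with 3.01% of all genes, and all 3 PH3 arrays were below both Air arrays for 17 members, with 12.5% of all genes. The scores were -0.16 and 0.68 in the Air hearts (rats 84 and 145). They were -0.76, -0.35 and -0.12 in the PH3 hearts (rats 91, 70 and 85), so 1 PH3 heart lay above Air rat 84. PH3 rat 91 had the lowest score of all heart arrays and also their highest actin 3′ minus 5′ signal, 2.32. The part of RNA quality in this fall was not tested. Without Air rat 145 the median was -0.18, 32 of 43 members were lower (51.9% of all genes were) and 2 had an unadjusted p under 0.05 (1.8% of all genes). Without Air rat 84 the median was -1.05 and no member was higher. Each of these fits leaves 1 Air heart, which is then assumed to vary like the other groups.

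Gins1 and Mcm5 gave similar changes with either control. Gins1 was a low signal in heart, with a mean of 4.47 over all Air hearts. The median of the members' Air means in heart was 5.61. Gins1 read 4.97 and 5.06 in the Air hearts (rats 84 and 145) and 3.93, 4.17 and 4.17 in the PH3 hearts. Mcm5 read 6.70 and 6.81 in Air and 5.27, 5.86 and 6.16 in PH3. For both genes every PH3 heart was below both controls. For Gins1 these controls were also above every heart array of the earlier times. There Gins1 read 4.012 to 4.685 in Air and 4.005 to 4.504 in PH3. The PH3 hearts of 4.17 thus lay among the earlier Air hearts, and that of 3.93 below them. High controls thus enter the Gins1 difference, and their part was not tested. The Mcm5 controls lay within the earlier Air hearts, 6.022 to 6.895, and the PH3 hearts of 5.27 and 5.86 below them. The change of Gins1 was -0.92 ± 0.17 (SE), limma adjusted p = 0.164, with -0.88 without Air rat 145 and -0.97 without Air rat 84, and that of Mcm5 was -0.99 ± 0.26 (SE), and -0.93 without it. Gins1 passed under 2 alternatives, an eBayes fit without a trend (adjusted p = 0.0452) and array weights (adjusted p = 0.0212).

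The mitotic members leaned on the 2 controls unequally. Cdk1 read 6.82 in Air rat 84 and 8.06 in Air rat 145, and 5.55, 6.08 and 6.70 in PH3. Cks2 read 6.45 and 7.78 in Air and 4.99, 5.89 and 6.53 in PH3, where the highest PH3 array passed Air rat 84. The changes were -1.33 ± 0.45 (SE) for Cdk1 and -1.31 ± 0.44 (SE) for Cks2, the latter -0.65 without Air rat 145. Racgap1 (-0.94 ± 0.32, SE), Top2a (-1.10 ± 0.38, SE), the central spindle motor Kif23 (-1.27 ± 0.44, SE), the kinetochore protein Cenpf (-1.17 ± 0.55, SE) and Mki67 (-1.04 ± 0.53, SE) had all PH3 arrays below both Air arrays. Pcna (-0.10 ± 0.11, SE) and Tk1 (0.23 ± 0.36, SE) overlapped, and Tk1 was the member that was higher. By role the median was -0.31 for replication genes, -0.79 for cyclins and kinases, -0.37 for the checkpoint and -0.87 for spindle and cytokinesis genes. These medians include Air rat 145, and no difference between roles was tested. Apart from the value of Cks2 without it, the changes of these members also include Air rat 145. Kif23 read 5.18 in Air rat 84 and 6.91 in Air rat 145, and 4.26, 4.90 and 5.16 in PH3, so its highest PH3 heart was close to Air rat 84. Of 17 marker lists of cell types and organs, 12 overlapped between PH3 and Air hearts at 24 h. Lower in all PH3 hearts were the mean levels of T and natural killer cell markers (10 of 10 measured; 4.44 to 4.68 in PH3 and 4.78 to 4.83 in Air), of B cell markers (3 of 6; 4.49 to 4.62 and 4.64 to 4.65) and of oligodendrocyte markers (5 of 6; 4.71 to 5 and 5.05 to 5.14). Higher were those of oligodendrocyte precursors (4 of 5; 6.15 to 6.26 and 6.10 to 6.13) and kidney tubule (6 of 6; 4.38 to 4.43 and 4.25 to 4.34). The part of these 5 lists in the result was not tested. The 3′ minus 5′ signal of actin, a sign of RNA quality, was 1.85 to 2.32 in PH3 and 1.82 in both Air hearts.

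Kidney at 24 h lay on the other side. There 41 of 43 members were higher in PH3 (51.4% of all genes were), the median was 0.38 against 0.00 for all genes, and 15 members had an unadjusted p under 0.05, all higher, with 2.37% of all genes. All 4 PH3 kidneys were above all 4 Air kidneys for 7 members (Tyms, Cdk1, Cks2, Mad2l1, Cdc20, Ube2c and Nusap1), with 1.04% of all genes. Cdk1 read 6.88, 7.57, 7.70 and 7.85 in Air and 8.01, 8.11, 8.21 and 8.29 in PH3. Nusap1 read 6.30, 6.39, 6.61 and 6.83 in Air and 6.97, 7.19, 7.27 and 7.28 in PH3. Neither gene overlapped, and in both the highest control was Air rat 145. The change was 0.66 ± 0.20 (SE) for Cdk1, 0.64 ± 0.21 (SE) for Nusap1 and 0.62 ± 0.20 (SE) for Rrm2, with limma adjusted p = 1 for the smallest of the 43. Mki67 overlapped, with 4.49, 4.49, 5.22 and 5.99 in Air and 4.30, 4.81, 5.51 and 6.38 in PH3. Cyclins and kinases were higher in 12 of 12, with 7 at an unadjusted p under 0.05, and replication genes in 10 of 12, with 3. The mean score of the Air kidneys was -0.157 at 24 h and 0.07, 0.018 and 0.043 at 1, 3 and 6 h. That of the PH3 kidneys was 0.188 at 24 h and -0.065, -0.12 and 0.023 at 1, 3 and 6 h. Low controls at 24 h thus enter the difference, and their part was not tested. Without Air rat 145 the median was 0.44, with 42 of 43 members higher (46.2% of all genes were) and 16 at an unadjusted p under 0.05 (2.26% of all genes). Leaving out each of the 8 arrays in turn gave medians from 0.28 to 0.44 and 34 to 43 members higher, but the count at an unadjusted p under 0.05 fell to 6 without Air rat 89 and 9 without PH3 rat 91. All 17 marker lists overlapped between the groups, and the actin 3′ minus 5′ signal was 2.79 to 3.62 in PH3 and 2.64 to 3.52 in Air.

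In lung at 24 h 41 of 43 members were lower in PH3 (47.2% of all genes were), with a median of -0.36 against 0.01 for all genes. The unadjusted p was under 0.05 for 7, with 1.41% of all genes, and the groups overlapped for every member. Aurkb read 7.16, 7.82, 8.49 and 8.55 in Air and 5.74, 5.89, 6.02 and 8.30 in PH3. So 3 PH3 lungs were below all controls and 1, rat 155, was among them. Within groups of lung arrays Aurkb had the lowest correlation of all members with the mean of the others (-0.49). Mki67 read 4.99, 5.43, 6.38 and 6.57 in Air and 4.14, 4.81, 4.90 and 5.33 in PH3. The cyclin Ccnb2 read 6.11, 6.93, 7.13 and 7.27 in Air and 5.82, 6.07, 6.30 and 6.66 in PH3. The changes were -1.52 ± 0.50 (SE), -1.05 ± 0.42 (SE) and -0.65 ± 0.26 (SE) in that order, with limma adjusted p = 1 for the smallest of the 43. Without Air rat 145 they were -1.33, -0.81 and -0.56, the median of the members was -0.18, 39 of 43 were lower (53.4% of all genes were), and 2 members had an unadjusted p under 0.05 (1.59% of all genes). That count was also 2 without Air rat 151, PH3 rat 70 or PH3 rat 149, 4 without PH3 rat 155, and 12 to 14 without any of the other 3 arrays. The lung epithelium markers were 12.77 to 12.88 in PH3 and 12.73 to 12.86 in Air, and 16 of 17 marker lists overlapped, oligodendrocyte precursors being higher in PH3 (5.96 to 6.00 against 5.78 to 5.91).

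**Figure D5:**
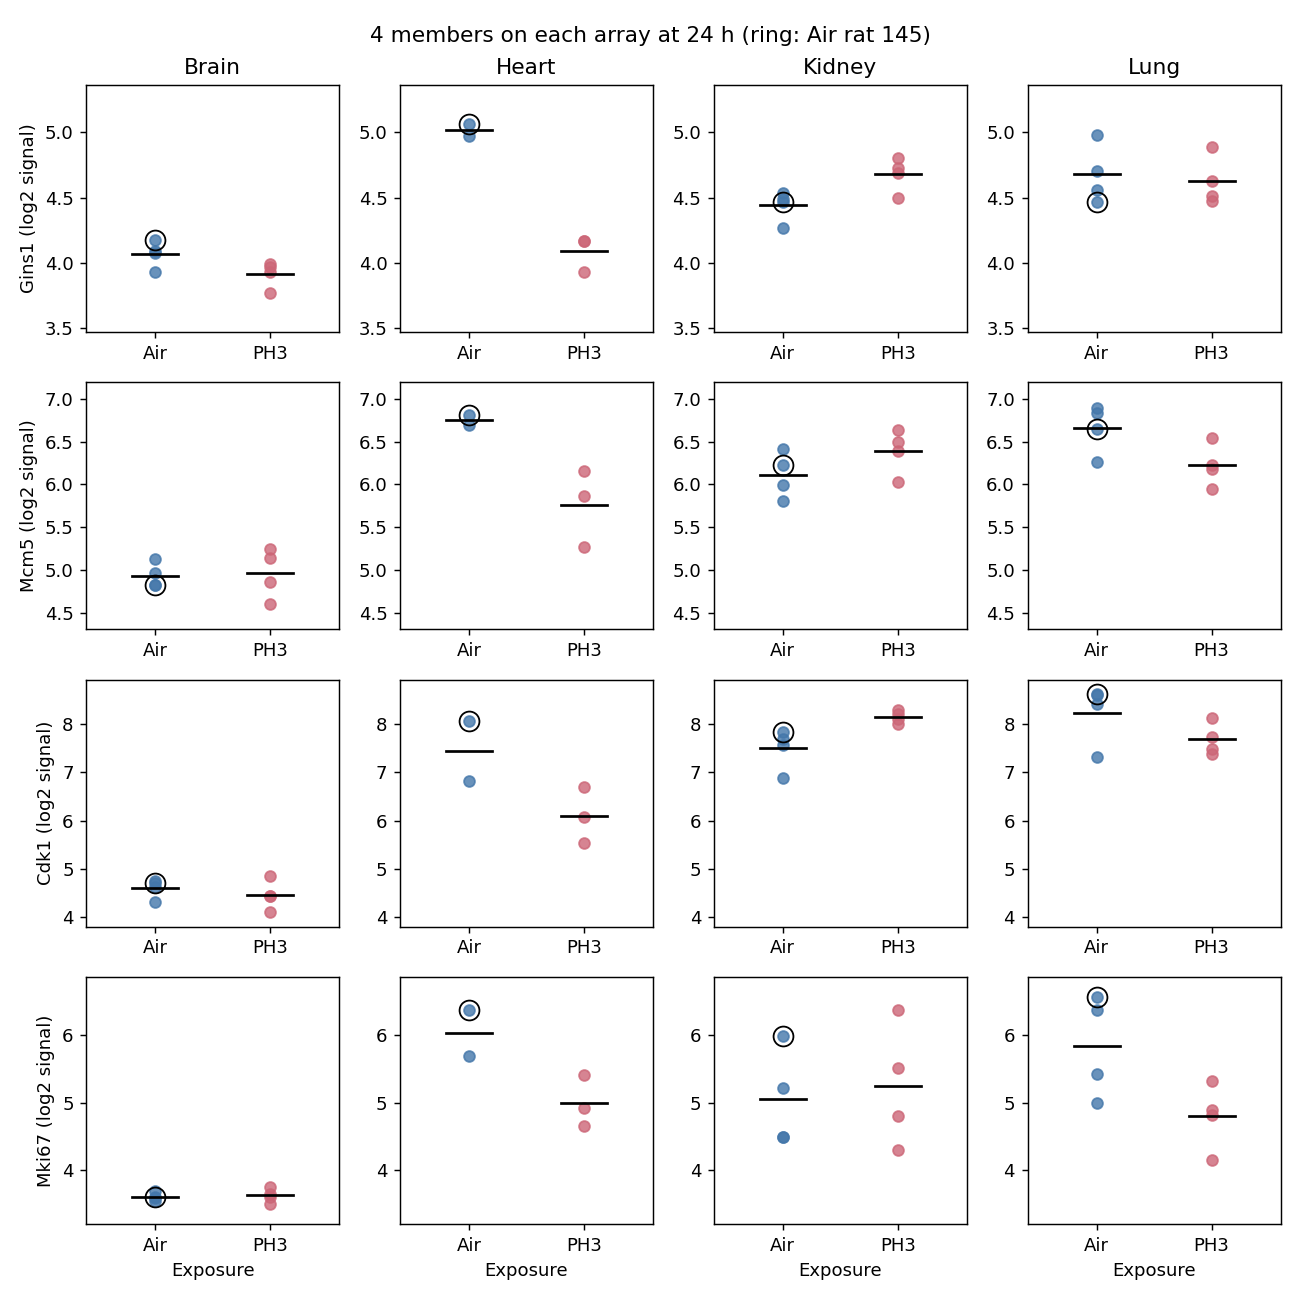
Log2 signal of Gins1, Mcm5, Cdk1 and Mki67 (rows) on each array at 24 h in brain, heart, kidney and lung (columns), Air in blue and PH3 in red; black lines are means, the ring marks Air rat 145, and each row has 1 scale. Gins1 and Mcm5 separate in heart whichever control is used, Cdk1 separates upward in kidney, and Mki67 in kidney overlaps. Both Gins1 controls in heart were above every heart array of the earlier times.

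Brain at 24 h had 32 of 43 members lower in PH3 (55.6% of all genes were), a median of -0.11 against -0.02 for all genes, and 7 members at an unadjusted p under 0.05, with 12.2% of all genes. Aurkb read 3.76, 4.54, 4.57 and 5.53 in Air and 3.61, 3.71, 3.81 and 3.85 in PH3. The PH3 brains lay close together and 1 Air brain was among them. The change was -0.86 ± 0.25 (SE), limma adjusted p = 0.169, and -0.55 without Air rat 145, the highest. Nusap1 gave -0.49 ± 0.19 (SE) and Mcm4 0.52 ± 0.20 (SE), and both leaned on Air rats 89 and 145. Mcm4 read 7.02 and 6.94 in these, 7.88 and 7.97 in Air rats 83 and 84, and 7.72 to 8.24 in PH3. Nusap1 read 4.73 and 4.69 in Air rats 89 and 145, 4.13 and 4.25 in Air rats 83 and 84, and 3.56 to 4.46 in PH3. Air rats 89 and 145 thus stood apart in brain at 24 h for some members, such as Mcm4. By score they were close to the other Air brains, at 0.06 and 0.035 against -0.024 and 0.026. Without both, the median was -0.04 and 2 members had an unadjusted p under 0.05. Leaving out 1 array at a time, that count ran from 1 (without Air rat 89) to 13 (without PH3 rat 85), and was 2 without Air rat 145 or PH3 rat 91.

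The F test over brain, heart and kidney was also run at 24 h, after the values were seen. Gins1 passed (adjusted p = 0.00401; 0.00419 with the rat as a block), with 0.0372% of all genes, and 24 of 43 members had an unadjusted p under 0.05 in this limma test, with 5.69% of all genes. This fit gave each gene 1 spread over the 3 organs. For Cdk1 the SD within groups was 0.55 in heart, 0.25 in brain and 0.29 in kidney. Where heart varies more, as for Cdk1, the test understates its spread, so the count of 24 may be too high. The 3 effects of Gins1 in the organ fits were -0.15 ± 0.07 (SE) in brain, -0.92 ± 0.17 (SE) in heart and 0.24 ± 0.15 (SE) in kidney. The heart effect rests on the high Gins1 controls described above, whose part was not tested. Without the heart array of Air rat 145 the adjusted p was 0.0764 and no member passed, while without that of Air rat 84 8 members did.

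Lung at 3 h, with 2 Air arrays, had 8 of 12 replication genes lower in PH3 and most spindle genes higher; no difference between roles was tested. The unadjusted p was under 0.05 for 7, 3 higher and 4 lower, with 11.8% of all genes. Mcm2 read 8.19 and 8.36 in Air and 7.37, 7.45, 7.47 and 7.72 in PH3, Mcm5 6.62 and 6.92 in Air and 5.98, 6.21, 6.21 and 6.37 in PH3. Bub1 read 3.95 and 4.30 in Air and 4.64, 5.27, 5.38 and 5.46 in PH3. None of these 3 overlapped, and the first pair was lower and Bub1 higher in PH3. The changes were -0.77 ± 0.29 (SE), -0.58 ± 0.22 (SE) and 1.06 ± 0.43 (SE), and the smallest limma adjusted p among members was 0.325. The median was -0.32 for replication genes and 0.43 for spindle and cytokinesis genes, of which 10 of 11 were higher, with Cenpf at 1.14 ± 0.49 (SE) and the hyaluronan receptor Hmmr at 0.81 ± 0.34 (SE). All PH3 arrays were above both Air arrays for 9 members and below both for 8, but 15.3% and 26% of all genes did the same with 2 controls. A fit of these 6 arrays alone passed 1 member, Mcm2 (limma adjusted p = 0.0432, with 520 genes passing), and array weights passed 8, with 2561 genes passing. The median over members, 0.02, was -0.15 without Air rat 150 and 0.16 without Air rat 144, and the 7 members at an unadjusted p under 0.05 were 3 and 2. They were 3 also without PH3 rat 147 or 148. The actin 3′ minus 5′ signal was 2.81 to 3.19 in PH3 and 3.23 to 3.31 in Air, so every PH3 lung was below both controls. That of Gapdh overlapped, at 1.07 to 1.77 in PH3 and 1.73 to 1.78 in Air. The part of RNA quality was not tested here either. Of 17 marker lists, 5 were lower in all PH3 lungs than in both controls: B cells (3 of 6 measured; 5.97 to 6.85 against 6.95 to 7.23), endothelium (10.52 to 10.76 against 10.87 to 10.99), lung epithelium (12.60 to 12.85 against 12.87 to 12.88), and the lists of oligodendrocytes and of newborn neurons, whose levels here were 5.69 or less; their part in the result was not tested.

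At 1 week 38 of 43 members were higher in PH3 lung (45.8% of all genes were), with a median of 0.16 and 1 member at an unadjusted p under 0.05, with 2.12% of all genes. Mki67 read 3.88, 4.25, 4.71 and 5.21 in Air and 4.90, 5.08 and 6.57 in PH3, and Top2a 4.68, 5.55, 6.22 and 6.41 in Air and 5.88, 6.26 and 6.97 in PH3. Both overlapped. The changes were 1.00 ± 0.45 (SE) and 0.66 ± 0.39 (SE), and that of Tyms 0.35 ± 0.21 (SE), with limma adjusted p = 1 for the smallest of the 43. Mki67 gave 0.47 without PH3 rat 142, Top2a 0.31 without Air rat 179 and Tyms 0.18 without Air rat 185. Leaving out each array in turn gave medians from 0.05 to 0.30, and 24 of 43 members were higher without PH3 rat 137. The scores of the PH3 lungs, -0.16 to 0.17, lay within those of the Air lungs, -0.52 to 0.21.

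Genes around the members in the same pathway passed in a few places. Of 19 measured G1 cyclins, kinases, E2F and MYC factors, 2 passed in heart at 3 h (0.238% of all genes did), both lower. None passed in the other 15 comparisons. Ccnd1, the cyclin D1 that takes cells from rest into G1, read 9.63, 9.71, 9.92 and 9.93 in Air and 8.70, 8.78, 9.02 and 9.31 in PH3, a change of -0.85 ± 0.14 (SE), limma adjusted p = 0.00389. Mycn, a transcription factor of the MYC family, read 4.76, 4.86, 4.86 and 6.22 in Air and 3.27, 3.40, 3.83 and 4.35 in PH3, a change of -1.46 ± 0.30 (SE), adjusted p = 0.0217. Neither overlapped. The call of Mycn was lost without Air rat 108, the high one (-1.11, adjusted p = 0.123), and without PH3 rat 111 or 122 (adjusted p = 0.0599 and 0.117). Mycn was lower in PH3 in 15 of 16 comparisons and Ccnd1 in 13. Of 18 measured brakes on the cycle, Gadd45a, a stress-induced growth arrest gene, passed in heart at 6 h (0.92 ± 0.21, SE, limma adjusted p = 0.015). There 2.7% of all genes passed. Tob2, an antiproliferative factor, passed in brain at 24 h (0.87 ± 0.15, SE, limma adjusted p = 0.039), with 0.0298% of all genes. Both had all PH3 arrays above all Air arrays. Gadd45a gave 0.56 without PH3 rat 141, the highest, and lost the call without Air rat 138 (adjusted p = 0.0509). Tob2 lost it without any 1 of 4 of the 8 arrays, Air rats 89 and 145 and PH3 rats 70 and 91 (adjusted p = 0.16, 0.168, 0.0954 and 0.37). In limma fits of the arrays of both groups alone, Mycn, Gadd45a and Tob2 all lost the call (adjusted p = 0.116, 0.202 and 0.566). Mycn lost it with array weights too (limma adjusted p = 0.0592). The p21 gene Cdkn1a, which inhibits the cyclin-dependent kinases, was higher in 12 of 16 comparisons, with 10 at an unadjusted p under 0.05, up to 1.56 ± 0.46 (SE) in kidney at 3 h, and passed in none (smallest limma adjusted p = 0.0685). Myc was highest in heart at 6 h, at 1.62 ± 0.48 (SE), adjusted p = 0.0679, and Ccng2, a cyclin of arrested cells, in brain at 24 h, at 0.69 ± 0.23 (SE), adjusted p = 0.214.

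Of 41 other DNA replication genes, 2 passed in heart at 6 h, where 2.7% of all genes did. Both are subunits of the origin recognition complex, and they went in opposite directions. Orc5 was lower (-0.52 ± 0.11, SE, limma adjusted p = 0.00997) and Orc4 higher (0.47 ± 0.13, SE, limma adjusted p = 0.0476). The call of Orc5 was lost with the mean of all its probe sets (adjusted p = 0.222), and that of Orc4 without any of 7 of the 8 arrays. Both calls were lost in a limma fit of the arrays of both groups alone (adjusted p = 0.0676 for Orc5 and 0.146 for Orc4). Pola2, a subunit of the polymerase that primes DNA synthesis, passed in lung at 3 h, with 9.87 and 9.98 in Air and 7.77, 8.01, 8.36 and 8.91 in PH3, a change of -1.66 ± 0.28 (SE), adjusted p = 0.0119, lost without either Air array (adjusted p = 0.336 without rat 144 and 0.117 without rat 150). In lung at 3 h 0.298% of all genes passed. Of 53 other mitosis genes none passed in any comparison. In heart at 24 h 48 of these 53 were lower in PH3 (55.3% of all genes were), with 10 at an unadjusted limma p under 0.05 (3.01% of all genes). Without Air rat 145 these were 32 of 53 and 0, and the median went from -0.37 to -0.069. In kidney at 24 h 40 of 53 were higher (51.4% of all genes were), with 8 at an unadjusted limma p under 0.05 (2.37%), and without Air rat 145 46 and 11. In lung at 24 h 45 of 53 were lower (47.2% of all genes were), with 6 (1.41%), and without Air rat 145 45 and 1. They were measured on the same arrays as the members, so they add no separate rats.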

How the data were processed

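The values are log2 signals as deposited, made by the authors with RMA (background correction, quantile normalization and probe set summary) from 3′ IVT labelled total RNA, 1 array per sample, per the submitters' processing notes, which also name Partek and Affymetrix Expression Console with no version. Whether all organs were normalized together is not given in the sources used here, so levels set across organs carry that limit. Array medians ran from 5.08 to 5.52, arrays of a group correlated at 0.951 to 0.994, and no pair of arrays was identical.

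Of 31139 probe sets, 19069 carry 1 gene symbol in the platform annotation, 572 several and 11498 none. The probe set of highest mean stood for a gene in each organ, which gave 13439 genes; Tk1 and Cdc20 used different probe sets in different organs. Each organ was fitted with limma 3.58.1 (R 4.3.3, data.table version 1.17.8; lmFit, eBayes with a trend) with 1 coefficient per group, so that small groups share 1 estimate of the spread. P-values were adjusted by Benjamini-Hochberg over all 13439 genes, with a threshold of 0.05. Differences between times and between brain, heart and kidney had limma F tests. The code was tested on simulated data, and figures were drawn with matplotlib 3.10.9. The number of arrays limits the precision. The labels number the rats but do not say how they were assigned, so p-values measure the spread between these animals.

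Genes named are the 3 members of smallest p in each comparison where none passed, the highest and lowest of each role in heart at 6 h, up to 4 passing genes of each pathway list per comparison, and a panel of 7 (Mki67, Top2a, Ccnd1, Cdkn1a, Ccng2, Myc and Mycn). Pcna, Melk, Kif11, Aurkb and Ttk in Air rats, and other members at 24 h and in lung at 3 h, were chosen after their values were seen. The members, roles, pathway lists and markers were chosen with earlier results of these data known. Rats shared between organs pair the arrays by the rat numbers in the labels; the residuals of the same rat in brain and heart, brain and kidney, and heart and kidney had median correlations of 0.0763, -0.0154 and 0.0689 over genes.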

Additional observations from a re-analysis of the deposited data

Results flagged for a closer look

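In 28 groups of scores and 115 groups of gene values with 4 arrays, 9 had 1 array far from the other 3; chance gives about 1 in 20 groups. The score of PH3 rat 141 in brain at 6 h was 0.043, the others being -0.019 to -0.011. In heart at 6 h the score of PH3 rat 128 was -0.19 against 0.121 to 0.171 in the others, and its Ect2 signal was 4.687 against 5.488 to 5.644. Mcm5 in brain at 1 h was 5.632 in PH3 rat 115 against 5.146 to 5.163. Aurkb in lung at 24 h was 8.303 in PH3 rat 155 against 5.736 to 6.022. Mcm2 in kidney at 6 h was 7.63 in Air rat 132 against 8.053 to 8.12. Cdc20 was 7.33 in PH3 rat 134 in kidney at 6 h against 6.895 to 6.939, and 5.075 in Air rat 126 in heart at 6 h against 6.024 to 6.196. Mycn in heart at 3 h was 6.223 in Air rat 108 against 4.761 to 4.856.

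The effect of exposure differed between brain, heart and kidney for Mcm5 at 1 h (limma F test, adjusted p = 0.0248) and for Gins1 at 24 h (limma F test, adjusted p = 0.00401).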

How the results depend on the processing

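The absence of passing members held in 92 other fits and in all 122 that left out 1 array, and did not in 5. These were Gins1 in heart at 24 h (1 member without the trend and 1 with array weights), Mcm7 in heart at 6 h (1 with array weights), and lung at 3 h (1 with the arrays of both groups alone, 8 with array weights). With array weights 1 member differed between times in heart and 2 in lung. Without the third of genes of lowest signal the brain medians rested on 9 members and were 0.13 at 1 h, 0.08 at 6 h and 0.19 at 24 h, and 0 of 18 members differed between organs at 24 h, Gins1 being among those not tested. In heart at 6 h Tk1 turned to -0.071 with array weights and -0.10 with the mean of all probe sets, and Top2a to -0.047 with that mean.

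Leaving out 1 array at a time gave medians of -0.010 to 0.070 in brain at 6 h, -1.05 to -0.18 in heart at 24 h and -0.15 to 0.16 in lung at 3 h. Medians also changed sign in heart at 1 h (-0.15 to 0.12), 3 h (-0.013 to 0.073) and 6 h (-0.19 to 0.10), liver at 6 h (-0.089 to 0.15), kidney at 6 h (-0.085 to 0.038), and brain at 1 h (-0.014 to 0.064) and 3 h (-0.041 to 0.0093). In heart at 6 h it gave -0.13 to 0.36 for Tk1, -0.11 to 0.36 for Top2a, -0.30 to 0.078 for Bub1b and -0.37 to 0.12 for Mki67. Members that differed between organs numbered 0 to 2 at 1 h and 0 to 8 at 24 h, with adjusted p from 0.0144 to 0.12 for Mcm5 and from 0.000406 to 0.0764 for Gins1. The cause was not tested.

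With the rat as a replicate block, since organs of 1 rat pair, the members that differed between brain, heart and kidney numbered 1, 0, 0 and 1 at 1, 3, 6 and 24 h, with adjusted p of 0.026 for Mcm5 and 0.00419 for Gins1, and the block changed no call. Group sizes of 2 to 4 arrays, and signals near the low end in brain, limit what could be detected.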

Other observations

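The 3 livers taken 3 h after PH3 had no Air livers at that time. Their cell cycle scores were -0.20, 0.30 and 0.42 (rats 111, 122 and 105), relative to the mean of each member over the 11 liver arrays.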
